A study of Mus musculus with 2 samples.

Results

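DNase I-hypersensitive sites (DHSs) were examined at 10 mouse genes whose products coat, break down or enlarge lipid droplets or are made by fat cells. The genes were Plin1, Plin2, Plin3, Plin5, Lipe, Pnpla2, Cidec, Adipoq, Lep and Ucp1, 10 of the 21815 protein-coding genes of GENCODE M21. A DHS was counted for a gene when it touched the gene body or the 20 kb on either side. This gave 137 of 130945 DHSs in replicate 1 and 108 of 157786 in replicate 2. The tissue was adrenal gland of male B6CASTF1/J mice, an F1 hybrid strain, aged 25 days, with no treatment or engineered allele given in the labels. There was 1 group of 2 libraries. The labels number the 2 animals separately as biological replicates but give both the same donor code. With 1 group there was nothing to test, so every value is given for each library and set beside the same value over all genes or all DHSs. The tissue was taken whole, so fewer cells of a type and less open chromatin per cell cannot be told apart.

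DNase I cuts DNA where nucleosomes are displaced, so a DHS marks an accessible promoter, enhancer or other regulatory element. Lipid droplets are stores of neutral lipid under a phospholipid coat. Cells of the adrenal cortex keep cholesteryl esters in such droplets and release cholesterol from them to make steroid hormones, and fat cells keep triglycerides. Perilipins (Plin genes) cover the droplet surface and control the access of lipases. Plin2, Plin3 and Plin5, with the lipase genes Lipe and Pnpla2, are droplet genes used by steroid-making cells as well as by other tissues. Plin1, Cidec, Adipoq, Lep and Ucp1 are best known from fat cells, although Plin1 has also been described in steroid-making cells.

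The height of a DHS is the signal value the authors deposited for each peak, scaled to the library, and has no unit of its own. The median height of all DHSs was 1.01 in replicate 1 and 0.72 in replicate 2, and the lists covered 22.6 and 23.5 Mb. Heights came in fixed steps of 0.00833 in replicate 1 and 0.00888 in replicate 2, with all values on a step within 0.01 of it. If 1 step is a single count scaled to CPM, the totals were 120.0 M and 113.0 M counts, which is inferred from the values. Marker genes of steroid-making cortex cells were open in both libraries. All 9 of 9 had a DHS at a start, with Nr5a1, which encodes the steroidogenic regulator SF-1, at heights of 9.01 and 4.09 and Star, the cholesterol carrier into mitochondria, at 7.55 and 4.02. Over all protein-coding genes 69.4% and 69.1% had one, so the count does not by itself set the markers apart. The median start height of the 9 genes was 6.22 in replicate 1 and 2.48 in replicate 2. Over all genes it was 3.99 and 2.6, so the markers were above it in replicate 1 only. The corticotropin receptor gene Mc2r was open at 0.458 and 0.666, and its partner Mrap at 8.37 and 5.26. The enzyme genes Cyp11b1, with 2.17 and 1.57, and Cyp21a1, with 1.67 and 1.53, were named after their values were seen and were among the lower ones. Cyp11a1, also named after its values were seen, had 6.22 and 1.8 but no DHS within 1 kb of its 5′ end in either library.

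A start was called open when a DHS lay within 1 kb of one of the gene's protein-coding transcript starts, and the strongest such DHS gave the start height. All 5 droplet genes used by steroid cells were open in both libraries. Replicate 1 had 4 of the 5 fat-cell genes open and replicate 2 had all 5. Over all protein-coding genes the open share was 69.4% in replicate 1 and 69.1% in replicate 2, so the counts of open members of 9 and 10 out of 10 do not by themselves set these genes apart. The groups differed in height. The median start height was 19.9 and 10.3 for the steroid-cell droplet genes, against 1.32 and 1.09 for the fat-cell genes. Over all genes it was 3.99 and 2.6, and over all open genes 8.85 and 6.25. The droplet genes ranged from 7.85 to 22.4 in replicate 1 and from 4.72 to 16.2 in replicate 2. The fat-cell genes ranged from 0 to 5.52 and from 0.72 to 1.48, so the groups did not overlap in either library. They did overlap when only the 5′ end of each gene was read, where Plin3 and Lipe were at 0 in both libraries and Cidec, Lep and Ucp1 were above 0. The median of 19.9 in replicate 1 was the height at Lipe, from a DHS that covered no start. With 500 bp in place of 1 kb Lipe had 9.94 and 8.45. The difference of the group medians then fell from 18.5 to 8.62 in replicate 1 and from 9.19 to 7.36 in replicate 2. These are 5 genes against 5 genes in the same 2 animals and not replicates of a condition, so no test was made.

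**Figure D1:**
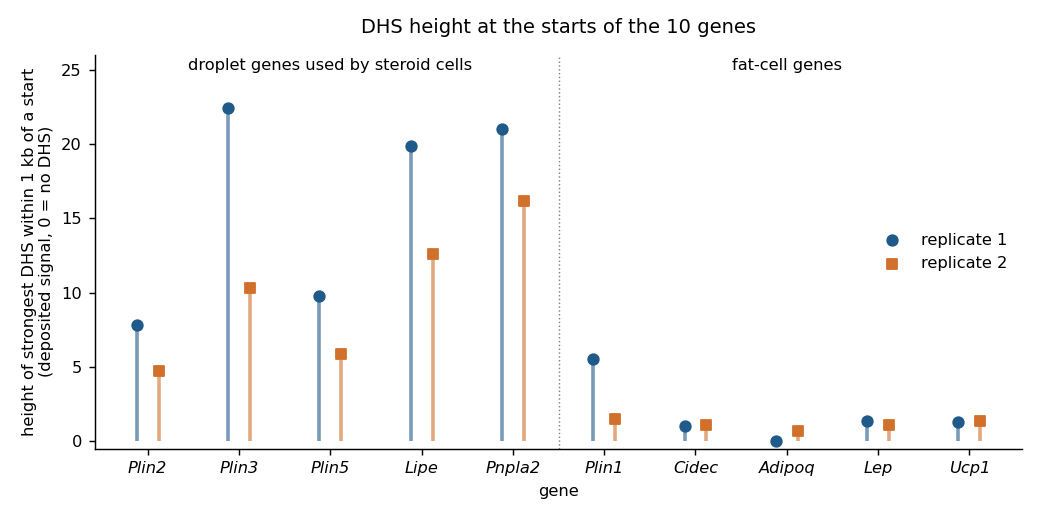
Height of the strongest DHS within 1 kb of a start (vertical axis, deposited signal, 0 where there was no DHS) for each gene, with replicate 1 as circles and replicate 2 as squares and the groups split by the dotted line. The droplet genes used by steroid cells lie between 4.72 and 22.4, and the fat-cell genes between 0 and 5.52.

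Sequences of some start DHSs are printed as examples, and they do not stand for all open starts of a group. They were read from the reference genome (GRCm38.p6, named mm10 in the files), which is the C57BL/6J strain, while the animals also carry a CAST allele. Each is written 5′ to 3′ on the strand of the gene, without bases annotated as UTR, and capitals mark bases inside a deposited footprint of replicate 1. A footprint is a short stretch protected from DNase I within a DHS. The open starts of 3 droplet genes come first, chosen because they share a word described after them.
Pnpla2, chr7:141455041-141455197, plus strand: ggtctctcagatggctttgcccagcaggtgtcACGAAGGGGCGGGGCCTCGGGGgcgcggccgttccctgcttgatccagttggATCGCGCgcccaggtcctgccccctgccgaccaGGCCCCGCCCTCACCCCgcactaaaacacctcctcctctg
Plin3, chr17:56290512-56290640, minus strand: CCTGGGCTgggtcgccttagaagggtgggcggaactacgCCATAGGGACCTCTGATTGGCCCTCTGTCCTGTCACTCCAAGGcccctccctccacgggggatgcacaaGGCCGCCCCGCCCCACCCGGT
Plin5, chr17:56117597-56117720, minus strand: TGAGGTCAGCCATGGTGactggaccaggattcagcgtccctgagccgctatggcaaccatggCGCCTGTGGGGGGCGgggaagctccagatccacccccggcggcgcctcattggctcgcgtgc
The Pnpla2 start holds the letters GGGCGGGG, a word bound by SP1 and KLF factors, at -119 bp and, on the opposite strand, at -38 bp. Positions are given from the 5′ end, counted to the first base of the word on the strand of the gene. All 8 bases of the first copy lay in a footprint in both libraries. Of the second copy all 8 did in replicate 1 and 0 in replicate 2. In Plin3 the word is on the opposite strand at 2346 bp, just before the inner start at 2362 bp. All 8 of its bases lay in a footprint in both libraries. In Plin5 the word is at -52 bp, with 5 bases in a footprint in replicate 1 and 6 in replicate 2.

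The weak starts of 2 fat-cell genes and the start of Adipoq, which was open in replicate 2 only, follow for comparison. For Adipoq capitals would mark a footprint of replicate 2, and none lay in the printed bases.
Lep, chr6:29060021-29060219, plus strand: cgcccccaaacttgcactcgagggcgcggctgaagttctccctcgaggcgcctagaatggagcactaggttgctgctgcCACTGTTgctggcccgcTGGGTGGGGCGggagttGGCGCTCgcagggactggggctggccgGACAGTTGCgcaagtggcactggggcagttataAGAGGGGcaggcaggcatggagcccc
Ucp1, chr8:83290181-83290351, plus strand: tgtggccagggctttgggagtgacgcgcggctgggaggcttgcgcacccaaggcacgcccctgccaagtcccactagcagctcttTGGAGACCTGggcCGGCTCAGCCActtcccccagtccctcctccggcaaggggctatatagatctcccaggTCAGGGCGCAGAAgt
Adipoq, chr16:23146461-23146535, plus strand: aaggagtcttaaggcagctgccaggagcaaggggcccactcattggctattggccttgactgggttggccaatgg
None of these 3 stretches holds GGGCGGGG, but the Lep stretch holds GGGCGGGA, which differs in the last letter. Such near matches were not counted. The strongest start DHS of Plin2, Plin3, Plin5 and Pnpla2 held the exact word GGGCGGGG on either strand in both libraries. These are 4 of the 5 droplet genes, and none of the 4 or 5 open fat-cell genes held it. Over all open genes 32.9% of strongest start DHSs held it in replicate 1 and 31.7% in replicate 2. The Lipe start DHS of 9.94 and 8.45 held it at 2641 bp, but the strongest one beside it did not, and that one is not printed because most of it is annotated as UTR. The Lipe word had 8 bases in a footprint in replicate 1 and 0 in replicate 2. The Plin2 word, at 15 bp, had 2 and 0. Matches describe the letters only and do not show binding.

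Plin2 encodes the perilipin that coats droplets in most tissues. It is on chr4 (86648386 to 86670060, minus strand), and all of its DHSs, 9 in replicate 1 and 6 in replicate 2, were nearer to its own starts than to those of any other gene. The DHS over its 5′ end had heights of 7.85 and 4.72, the 45.5th and 41.0th percentile of open genes. Away from the start, the strongest DHS of replicate 1 lay upstream at -16120 bp, with 3.41 and 2.16. In replicate 2 the strongest was its neighbour at -15330 bp, with 1.52 and 2.38. The upstream DHS is shown because it holds 1 match to CAAGGNCA, the word bound by SF-1.
Plin2 upstream DHS, chr4:86686101-86686260, minus strand: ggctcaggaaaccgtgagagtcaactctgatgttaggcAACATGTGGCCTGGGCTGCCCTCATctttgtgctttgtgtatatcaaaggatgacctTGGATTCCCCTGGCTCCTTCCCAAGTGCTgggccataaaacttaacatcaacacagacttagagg
The matching letters, CAAGGTCA on the opposite strand, begin at -16111 bp. A footprint reached into them by 2 bases in replicate 1 and 1 base in replicate 2, so the word lay mostly outside the protected stretch. Of the Plin2 DHSs 5 were shared, meaning that they overlapped a DHS of the other library by at least 1 bp. The 4 unshared ones of replicate 1 were low, and the 1 in replicate 2, at -6880 bp, had a height of 0.942.

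Plin3, an exchangeable perilipin that moves between cytosol and droplets, is on chr17 (56277476 to 56292873, minus strand). It had the highest start of the 10 genes in replicate 1 and the third in replicate 2. The annotated 5′ end had no DHS in either library, and no base within 1 kb of it reached an FDR of 0.05 in the deposited lists. The open start was the inner one, 2362 bp inside the gene, with heights of 22.4 and 10.3 and percentiles of 93.9 and 72.1. A further DHS at 1563 bp from the 5′ end had 10.1 and 6.03, and one at 4803 bp in an intron had 2.78 and 3.04. All 5 DHSs nearest to Plin3 in replicate 1 were shared, and 5 of 6 in replicate 2, where the unshared one at 3401 bp had 0.773. Its window also held the start of Uhrf1, at -11307 bp with 17 and 12.4.

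Plin5 encodes the perilipin of cells that burn fatty acids, such as heart and brown fat. It is on chr17 (56111601 to 56117596, minus strand), next to its relative Plin4. Its start DHS had heights of 9.77 and 5.9, near the middle of open genes at percentiles of 53.9 and 47.8. Only 2 DHSs in each library were nearest to Plin5, and both were shared. The second lay inside the gene at 1216 bp from the 5′ end, with 3.55 and 2.17. It is printed because it holds 2 SF-1 words.
Plin5 DHS inside the gene, chr17:56116301-56116460, minus strand: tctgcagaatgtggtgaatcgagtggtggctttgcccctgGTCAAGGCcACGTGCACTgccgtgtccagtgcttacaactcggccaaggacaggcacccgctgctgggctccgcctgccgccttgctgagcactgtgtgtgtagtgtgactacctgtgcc
Of the letters CAAGGCCA at 1178 bp, 7 lay in a footprint in replicate 1 and 0 in replicate 2. The other word, CAAGGACA at 1220 bp, touched no footprint in either library. The remaining DHSs in the Plin5 window, 19 in replicate 1 and 11 in replicate 2, were nearer to starts of other genes such as Sema6b and Lrg1.

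Lipe encodes hormone-sensitive lipase, which cleaves cholesteryl esters and diglycerides. It is on chr7 (25379527 to 25398710, minus strand), and it had the most DHSs of its own, 19 in replicate 1 and 13 in replicate 2. Of the 19, 13 were shared, as were all 13 of replicate 2. The strongest unshared DHS, at 5597 bp, had 0.867. The 5′ end was closed in both libraries, with no base at an FDR of 0.05 within 1 kb. The strongest DHS, chr7:25395561-25395760 in an exon, reached 19.9 and 12.6. It lay within 1 kb of a start that is 2331 bp inside the gene but did not cover it. The DHS over that inner start had only 2.94 and 2.99, and the strongest within 500 bp of it had 9.94 and 8.45. A DHS in an intron at 12240 bp had 8.47 in replicate 1 and 4.96 in replicate 2. Further into the gene, a DHS at 10720 bp was the shared one that differed most in favour of replicate 2, with 1.35 and 3.53.

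The upstream DHS of Lipe at -3450 bp, with 1.7 and 1.24, overlaps the gene body of Cxcl17. It holds 2 SF-1 words, CAAGGCCA at -3424 bp and CAAGGGCA at -3461 bp, and neither touched a footprint in either library. A DHS at 7560 bp holds the only PPAR/RXR repeat among the DHSs nearest to these genes, AGGNCA followed after 1 base by AGGNCA, at 7523 bp. It had heights of 1.77 and 1.63, and the repeat touched no footprint. PPAR/RXR pairs are lipid-sensing nuclear receptors that drive fat-cell genes.

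Pnpla2 encodes adipose triglyceride lipase, which takes the first step of triglyceride breakdown. It is on chr7 (141455198 to 141460743, plus strand) in a gene-dense stretch. Its start DHS, at -78 bp, had heights of 21 and 16.2 and stood at similar percentiles in both libraries, 91.6 and 91.9. Only 4 of the 29 DHSs in its window in replicate 1 and 6 of the 35 in replicate 2 were nearest to Pnpla2. Others belonged to neighbours, the strongest to Rplp2 with 12.3 and 9.41. The 4 of replicate 1 were all shared. A DHS at 242 bp with a height of 3.14 was in the peak list of replicate 2 only. In replicate 1 all 200 of its bases were nevertheless at an FDR of 0.05 or less, with a lowest value of 1.63e-09, so its absence from that list is not an absence of signal there.

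Plin1 coats the large droplet of fat cells and gates Lipe and Pnpla2. It is on chr7 (79720218 to 79732903, minus strand). Among the fat-cell genes it had the largest summed height of DHSs nearest to the gene, 23.2 in replicate 1 and 9.91 in replicate 2. The start height of Plin1 was 5.52 in replicate 1 and 1.48 in replicate 2, percentiles of 34.7 and 18.6. The DHS concerned lay in an exon near a start 3038 bp inside the gene. At a log2 ratio of -1.9 for replicate 2 over replicate 1, it was the shared DHS of these genes that differed most between the animals. The 5′ end had a DHS of 1.45 in replicate 1 and none in replicate 2, where 28 bases of that DHS were at an FDR of 0.05 or less, with a lowest value of 0.0292. Of the 10 DHSs nearest to Plin1 in replicate 1, 5 were shared, and all 5 of replicate 2. The strongest unshared one, at 4503 bp in an intron, had 2.57 in replicate 1.
A DHS upstream of Plin1 at -1897 bp had 3.92 and 2.86. It is shown because a footprint lay over the same bases in both libraries, 13 of the 24 footprint bases of replicate 1.
Plin1 upstream DHS, chr7:79734701-79734900, minus strand: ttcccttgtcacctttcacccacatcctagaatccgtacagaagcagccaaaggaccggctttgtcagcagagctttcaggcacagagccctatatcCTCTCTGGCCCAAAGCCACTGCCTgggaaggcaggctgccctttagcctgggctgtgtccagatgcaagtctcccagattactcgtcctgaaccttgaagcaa
The capitals mark 1 stretch, and none of the 7 words searched lies in this DHS. Together with a DHS in an exon at 11273 bp, with 3.72 and 3, it had more signal in replicate 2 than the start did.

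Cidec encodes the protein that lets fat-cell droplets fuse into one. It is on chr6 (113424634 to 113435760, minus strand). The only DHS near its starts lay in an intron at 790 bp from the 5′ end, covered no start, and had heights of 1.03 and 1.08, percentiles of 9.53 and 13.6. It holds the C/EBP word TTGAGCAA at 798 bp, which lay whole in a footprint in replicate 1 and in none in replicate 2. The lowest FDR within 1 kb of the 5′ end was 0.00015 in replicate 1 and 0.0146 in replicate 2. An unshared DHS at 8243 bp had 0.983 in replicate 1. In both libraries the window was led by another gene, Rpusd3, whose start DHS had 32.7 and 21.4, and only 4.08% and 3.7% of the summed height in the window was nearest to Cidec.

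Adipoq encodes adiponectin, a hormone made by fat cells, and is on chr16 (23146536 to 23158028, plus strand). It had no DHS at its start in replicate 1 and one of 0.72 in replicate 2, the 7.71th percentile. Replicate 1 had no base at an FDR of 0.05 within 1 kb of the 5′ end, and replicate 2 had a lowest FDR of 0.00879 there. The printed start bases hold the SF-1 word CAAGGCCA on the opposite strand at -25 bp, outside any footprint. The only shared DHS of Adipoq itself lay in an intron at 5088 bp with 0.658 and 0.577. Both values are below the median height of all DHSs of their library. The strongest DHS of Adipoq in replicate 2 was an unshared one downstream, at 12615 bp, with 0.844. The start of its neighbour Rfc4 was open in both libraries, with 11.1 and 6.71.

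Lep encodes leptin, the fat-cell hormone that reports fat stores to the brain, and is on chr6 (29060220 to 29073877, plus strand). Its start DHS had 1.37 and 1.09, percentiles of 13 and 13.7, with a lowest FDR of 1.12e-09 and 2.09e-05 within 1 kb. The C/EBP word TTGCGCAA stands at -54 bp, and 4 of its bases lay in a footprint in replicate 1 and 0 in replicate 2. All 7 DHSs in the window in replicate 1 and all 4 in replicate 2 were nearest to Lep, and 3 of them were shared. None of the others was higher than the start, and the strongest unshared one, at 13750 bp, had 1.06.

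Ucp1 encodes the uncoupling protein of brown fat, which makes heat in mitochondria, and is on chr8 (83290352 to 83298452, plus strand). The DHS over its start had 1.32 in replicate 1 and 1.4 in replicate 2, percentiles of 12.6 and 17.8. It was low in both animals, with a lowest FDR of 2.36e-07 and 3.16e-06 within 1 kb. The only other shared DHS lay at -4749 bp, with 0.567 in replicate 1 and 1.02 in replicate 2. The strongest DHS away from the start in replicate 1 was an unshared one at 9960 bp, with 0.758. In replicate 1, 2 of the 4 DHSs were shared, and in replicate 2 both were.

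**Figure D2:**
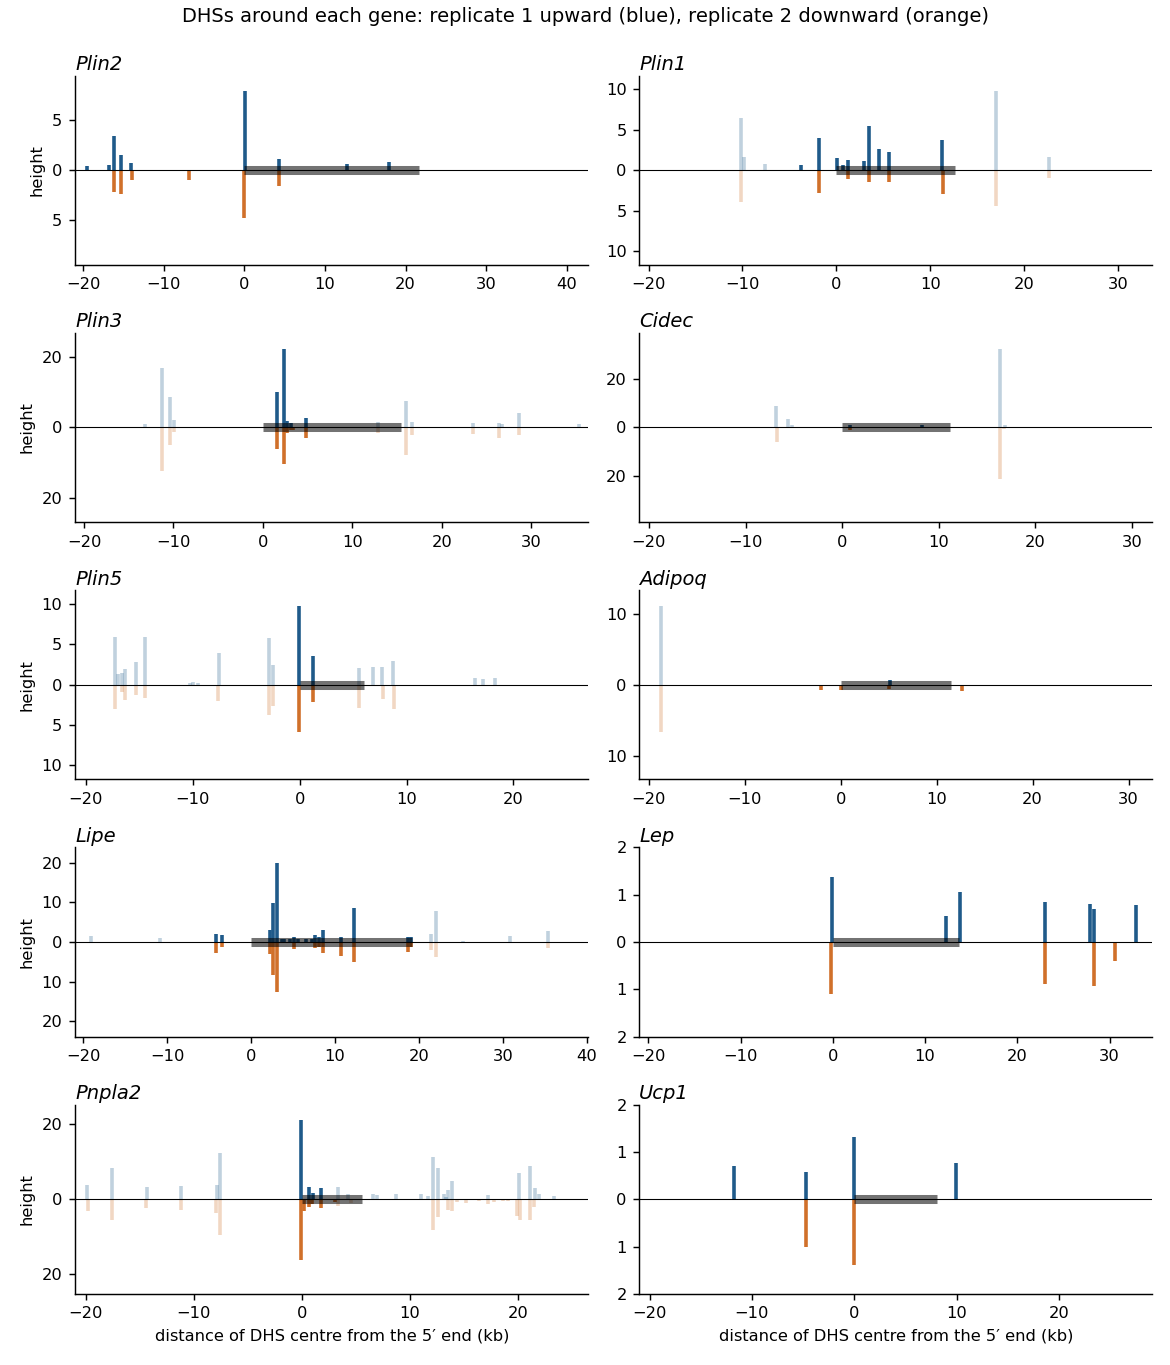
Position of each DHS centre from the 5′ end of the gene (horizontal axis, kb, along the strand of the gene) and its height (vertical axis, deposited signal, scale set per gene), with replicate 1 upward and replicate 2 downward. Dark lines are DHSs nearest to the named gene, pale lines those nearest to another gene and the grey bar is the gene body, and at Cidec and Adipoq the tall lines, up to 32.7 and 11.1, are pale.

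With the 5′ end alone in place of any start, 3 of the 5 droplet genes and 4 of the 5 fat-cell genes were open, the same numbers in both libraries. Plin3 and Lipe dropped out in both libraries and Plin1 in replicate 2, while Adipoq had no start DHS in replicate 1 by either rule. Over all genes 65.8% of 5′ ends were open in replicate 1 and 65.1% in replicate 2. The genes were also split by the ratio of observed to expected CpG in the 500 bp on either side of the 5′ end, with a limit of 0.4 chosen after values had been seen. The ratio was lowest at Lipe, with 0.08, then 0.11 at Plin3 and Plin1, 0.14 at Adipoq and 0.21 at Cidec. It was 0.38 at Lep, 0.39 at Plin2, 0.44 at Ucp1, 0.48 at Plin5 and 0.59 at Pnpla2, so Lep, Plin2 and Ucp1 are near the limit. At Plin3 and Lipe the ratio describes the closed 5′ end and not the open starts 2362 and 2331 bp inside the genes. Of the 7 CpG-poor members 4 were open at the 5′ end in each library, where 22.4% and 24.0% of all 8739 CpG-poor genes were. All 3 CpG-rich members were open, against 94.9% and 92.7% of CpG-rich genes. Open CpG-poor 5′ ends had a median height of 1.48 and 1.15 over all genes, and Plin2, with 7.85 and 4.72, was above it in both libraries. Lep had 1.37 and 1.09, Cidec 1.03 and 1.08, Plin1 1.45 in replicate 1 and Adipoq 0.72 in replicate 2, all below that median in their library.

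The share of DHSs found in both animals was compared next. In replicate 1, 86 of the 137 DHSs in the 10 windows were shared, 62.8%, against 62.2% of all DHSs of that library. In replicate 2, 87 of 108 were shared, 80.6%, against 51.8%. The share in replicate 1 is thus near the background and the one in replicate 2 is above it. By group it was 65.7% and 80.0% at the droplet genes and 54.3% and 82.6% at the fat-cell genes, so the order of the groups differed between the libraries. Many window DHSs belong to neighbours. Of those nearest to the genes themselves, 63 and 49, the shared part was 65.1% and 83.7%. At the droplet genes it was 29 of 39 and 29 of 33, and at the fat-cell genes 12 of 24 and 12 of 16. This narrower count was chosen after the number of neighbours' DHSs had been seen.

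**Figure D3:**
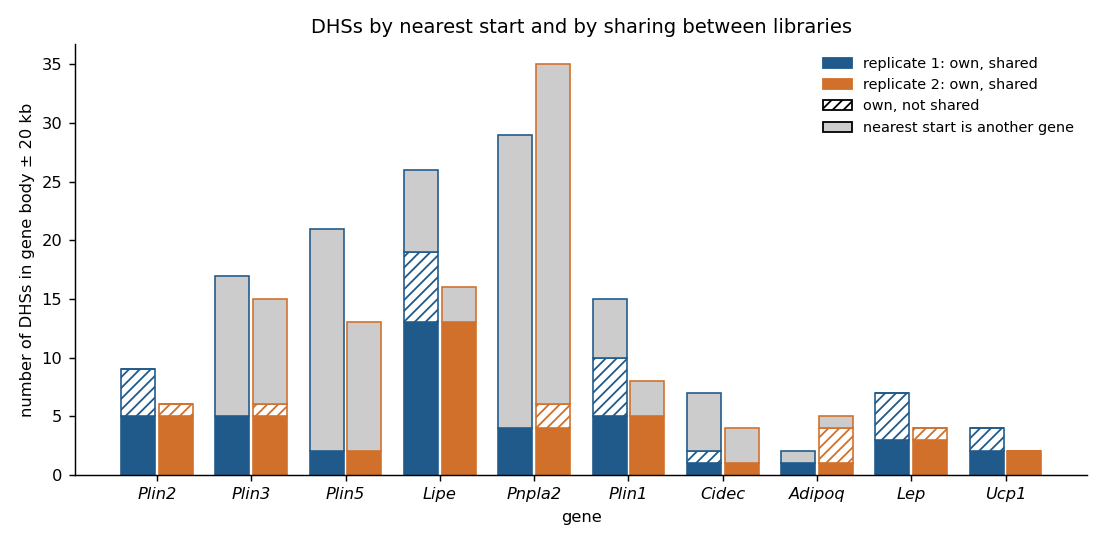
Number of DHSs in the gene body and 20 kb on either side (vertical axis) for each gene, replicate 1 in blue and replicate 2 in orange, split into shared and unshared DHSs nearest to the gene and DHSs nearest to another gene (grey). Lipe has the most DHSs of its own, 19 and 13, while most of the 29 and 35 at Pnpla2 are grey.

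Unshared DHSs were mostly low. Of the 22 in replicate 1 that were nearest to one of the genes, the heights ran from 0.433 to 2.57 with a median of 0.766, and the 8 in replicate 2 from 0.4 to 3.14 with a median of 0.799. The shared ones had medians of 1.77 and 2.11. Only 1 of the 22 and 1 of the 8 had any base at an FDR of 0.05 or less in the other library, the Plin1 5′ end and the Pnpla2 DHS at 242 bp.

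The heights of shared DHSs were lower in replicate 2. Over 87 overlapping pairs in the windows the median log2 ratio of replicate 2 to replicate 1 was -0.37, and replicate 2 was higher in 27. Over all 82852 pairs the median was -0.34, and single pairs had an SD of 0.69. The median was -0.38 over 68 pairs at the droplet genes and -0.33 over 19 at the fat-cell genes. Dividing each height by the summed height of its library turned the sign, to 0.02 for the members and 0.05 for all pairs.

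**Figure D4:**
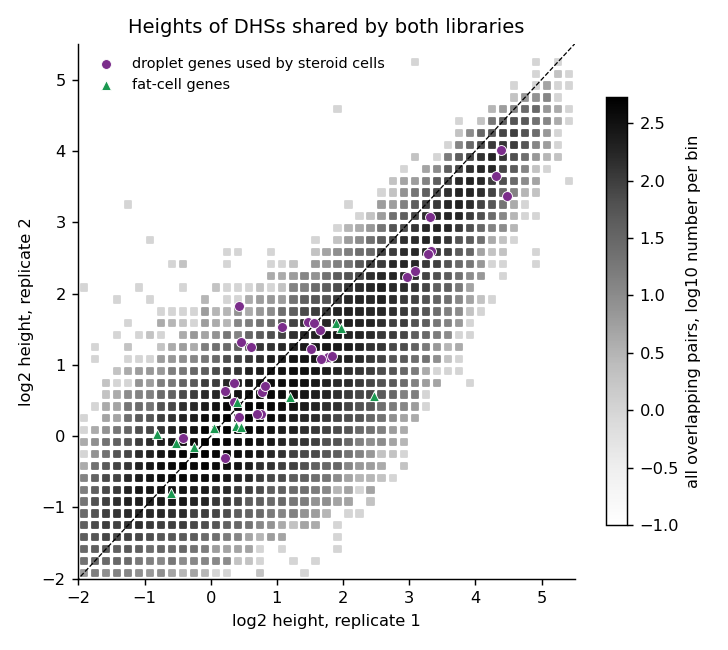
Log2 height in replicate 1 (horizontal axis) and replicate 2 (vertical axis) of the 41 shared pairs nearest to the genes, droplet genes as circles and fat-cell genes as triangles, over the density of all 82852 overlapping pairs in grey. The dashed line marks equal heights, and the triangle farthest below it is the Plin1 DHS with a log2 ratio of -1.9.

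Of the window DHSs 86.9% held at least 1 deposited footprint in replicate 1 and 75.0% in replicate 2. Over all DHSs it was 77.6% and 63.1%. The droplet genes had 86.3% and 74.1% and the fat-cell genes 88.6% and 78.3%. Among DHSs nearest to the genes the order turned in replicate 2, with 87.2% and 81.8% at the droplet genes and 87.5% and 68.8% at the fat-cell genes. More footprints were deposited for replicate 1, 272597, than for replicate 2, 184847.

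Consensus words were counted on both strands of whole window DHSs, beside the share over all DHSs. SF-1 drives most genes of steroid synthesis, and its word was in 5.84% of window DHSs in replicate 1 and 7.41% in replicate 2, below the 10.4% and 8.37% of all DHSs. In the DHSs nearest to the genes it was in 7.94% and 12.2%, so in replicate 2 that share was above the background. In the 200 bp at the centre of window DHSs it was in 8.76% and 7.41%, below the 11.8% and 10.4% of all DHSs. C/EBP factors act in fat-cell formation, and their word, TTNNGCAA, was in 8.76% and 7.41%, against 6.64% and 5.87%. In the 200 bp at each DHS centre the order turned in replicate 2, with 6.48% against 8.26%, and in replicate 1 it was 9.49% against 8.05%. At the fat-cell genes it was in 6 of 35 and 3 of 23. The AP-1 word, TGANTCA, was in 13.1% and 13%, against 11.5% and 9.34%. It was in 17 of 102 and 14 of 85 DHSs at the droplet genes and in 1 of 35 and 0 of 23 at the fat-cell genes. GGGCGGGG was in 12.4% and 14.8%, against 7.72% and 5.9%, and of the 17 and 16 DHSs with it, 16 in each library were in the windows of the droplet genes. Most of these lay nearest to other genes. Among DHSs nearest to the genes themselves, 5 of 39 and 6 of 33 held it at the droplet genes, and 1 of 24 and 0 of 16 at the fat-cell genes. The PPAR/RXR repeat was in 3 and 1 window DHSs, 2.19% and 0.926%, against 0.319% and 0.281%. The cyclic AMP response word TGACGTCA and the NFI palindrome (TTGGC, then GCCAA after 5 bases) were in 0 of 137 and 0 of 108, against 0.713% and 0.598% for the first and 0.155% and 0.0938% for the second. In the strongest start DHS the C/EBP word was at Cidec and Lep in both libraries and at 0 of 5 droplet genes, against 4.2% and 4.14% of all open genes.

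Other genes of the same pathways place the members among their relatives. Among 19 other droplet genes replicate 1 had 18 open and replicate 2 all 19, with median start heights of 11.4 and 7.56. Of all protein-coding genes 69.4% and 69.1% were open. Median start heights were 3.99 and 2.6 over all genes and 8.85 and 6.25 over open genes. Plin4 had 2.9 and 2.99, and Abhd5, the co-activator of Pnpla2, had 23.2 and 12. G0s2, an inhibitor of Pnpla2, had 5.59 and 3.19, and Mgll, which cleaves monoglycerides, had 4.51 and 2.74. Fitm1 was the exception, with 0 and 0.915. All 4 of 4 adipokine receptor genes were open in both libraries. With 69.4% and 69.1% of all genes open, neither count by itself sets its list apart. Adipor1 and Adipor2, the adiponectin receptors, had 19.4 and 15.1 and 13.6 and 12.4. Cdh13, which binds adiponectin, had 1.97 and 1.17, and the leptin receptor gene Lepr had 1.27 and 1.04.

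Of 14 white fat genes 12 were open in the first library, 11 in the second and 10 in both, with median start heights of 1.28 and 1.16. Over all genes 69.4% and 69.1% were open with medians of 3.99 and 2.6, so the white fat medians were below those of all genes. Pparg, the master regulator of fat-cell formation, had 2.82 and 1.55, and Fabp4, a fatty acid carrier of fat cells, 1.18 and 0.799. Others were higher, with 15.8 and 7.74 at Cebpa, 14.8 and 7.45 at Slc2a4, which encodes the insulin-regulated glucose transporter, and 6.47 and 3.09 at Acvr1c. Retn, which encodes resistin, had 0.65 and 0, Cfd 0 and 1.44, Aqp7 1.07 and 0, and Adig was at 0 in both. Of 9 brown fat genes 9 and 8 were open, with medians of 1.77 and 0.808, also below those of all genes. Cidea had 4.07 and 2.1, Prdm16 1.77 and 0.808, Ppargc1a 0.542 and 0.72, and Dio2 0.6 and 0. Ebf2, with 14.2 and 6.96, and Cox7a1, with 7.96 and 6.95, were the highest of the brown fat genes. Slc2a4, Acvr1c, Ebf2 and Cox7a1 were named after their values were seen. Whether fat cells in the samples gave the low heights at the fat-cell members was not tested.

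**Figure D5:**
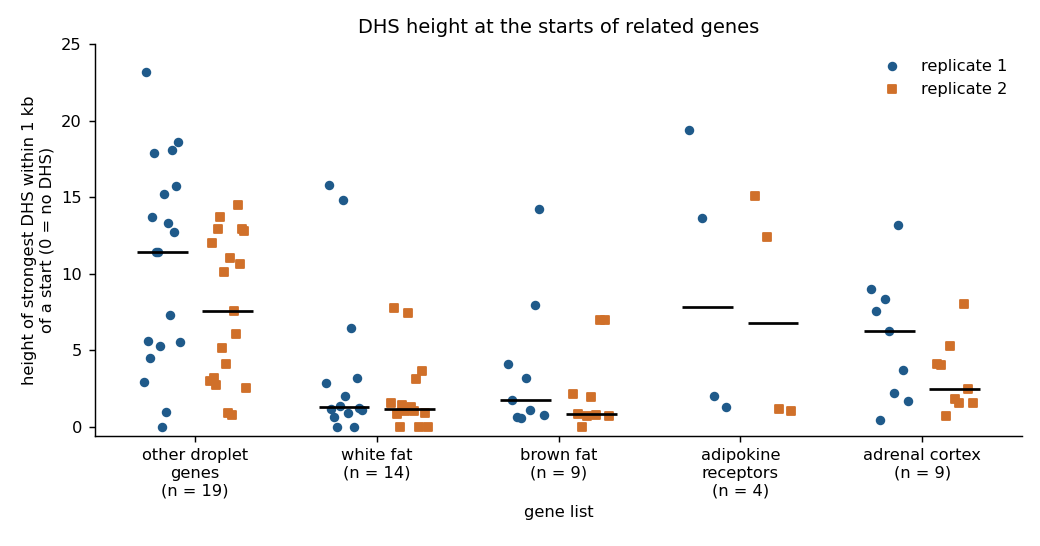
Height of the strongest DHS within 1 kb of a start (vertical axis, deposited signal) for each gene of 5 lists, replicate 1 as circles and replicate 2 as squares, with black bars at the medians. The other droplet genes have medians of 11.4 and 7.56, and the white fat genes 1.28 and 1.16.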

How the data were processed

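DNase-seq libraries of adrenal gland from 2 mice were used, 1 library per animal. For each library the authors deposited 2 peak lists, of which the longer was used and the shorter served as an alternative, genome-wide false discovery rates (q-values) and footprints at an FDR of 0.01, all in mm10 per the labels. Height is the deposited signal value in column 7 of the peak lists. What aligned the reads and called peaks and footprints is not given in the sources used here. Peak starts, counted from 0 in the deposited files, were written 1-based.

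Genes, transcript starts and UTRs came from GENCODE M21 and sequences from GRCm38.p6. A DHS was shared when it overlapped a DHS of the other library by 1 bp, and was nearest to a gene by its centre and the closest protein-coding start. A DHS touching 1 kb on either side of a start made it open. No test was made, since there was 1 group of 2 libraries, whose number limits the precision. Inferred totals were 120.0 M and 113.0 M counts.

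The members and gene lists were chosen with earlier results of these data known. Named were all 10 members, the first 4 genes of each other list with the exceptions to its count, the neighbours nearest to a described DHS, and of each member the strongest start DHS, the strongest other DHS and, where it had one nearest to it, the strongest unshared DHS. Further DHSs, the letters of the consensus words, the sequences printed and the CpG ratio limit were chosen after values had been seen. The scripts were tested on simulated DHSs, with 200 genes made open and 200 left closed among 21815. All 200 made open and 0 of 200 left closed were called open, and all 60 sites made unshared were called so. The simulated DHSs lay inside the 1 kb window at genes set apart from their neighbours. Crowded windows and the lowest heights were not tried, so the result checks the code only. Python 3.11.15, numpy 2.4.6, pandas 2.3.3 and matplotlib 3.10.9 were used. Alternatives were other windows, the shorter list, the 50000 strongest DHSs, other overlap rules, other scalings, Plin1 in the other group and leaving out each library.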

Additional observations from a re-analysis of the deposited data

How the results depend on the processing

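The number of window DHSs, 122.5 as the mean of the libraries, was 44.5 in gene bodies alone, 205.5 with 50 kb on either side and 56 when only DHSs nearest to the genes were counted. Open droplet genes fell from 5 to 3 at the 5′ end alone, and open fat-cell genes from 4.5 to 1.5 among the 50000 strongest DHSs. In the shorter lists Adipoq was at 0 in both libraries and Plin1 and Cidec in replicate 2. The difference of the group medians of start height, 13.9, was 7.99 with 500 bp on either side of a start and 5.08 at the 5′ end alone. With Plin1 among the droplet genes it was 10.3, and it was above 0 in every alternative run. The log2 height ratio of -0.37 became 0.02 when heights were divided by library sums. The share of window DHSs with a word moved by more than 1 SD of the 2 libraries for 4 words: SF-1 from 6.62% to 8.09% in 200 bp at the DHS centre and 10.1% in the nearest DHSs, C/EBP from 8.09% to 9.63% in the nearest DHSs, AP-1 from 13.1% to 13.9% and 15.1%, and GGGCGGGG from 13.6% to 10.9% in the nearest DHSs. Open brown fat genes fell from 8.5 to 5.5 in the shorter lists. The ratio and brown fat results in the shorter lists, and the shares and ratios in the nearest DHSs, were added after seeing the data. Leaving out either library gave ranges of 108 to 137 DHSs, 9 to 10 open members, 9.19 to 18.5 for the difference of medians and 62.8% to 80.6% shared. No paired analysis was possible because there was 1 group and no test. With 2 libraries, heights near the smallest values and DHSs found in 1 library cannot be separated from detection limits.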
